A study of Mus musculus with 7 samples.

Results

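Nppa, Nppb, Ankrd1 and Acta1 are nuclear genes whose transcripts are commonly measured as signs of load on heart muscle. They were taken by symbol from 49584 listed features, of which 15828 had a count in at least 1 library, and 4 of 4 were found and passed the filter on low counts. They were measured by small RNA sequencing of crude heart mitochondria from mice with and without Tefm, the mitochondrial transcription elongation factor. The 3 control libraries came from mice labelled L/L, genotype Tefm +/+, which carried a Tefm exon between loxP sites and no cre. The 4 knockout libraries came from mice labelled L/L, cre, genotype Tefm -/-, which carried the same loxP-flanked alleles and also cre under the muscle creatine kinase promoter. That promoter is active in cardiomyocytes and skeletal muscle, so the other cells of the heart are taken to keep the gene. The sources used here give no age. The design text counts 4 control mice, and libraries of 3 are used here. A library stands for 1 mouse. If some libraries share a mouse, p-values reflect technical spread in part.

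Natriuretic peptides are hormones of the heart. Nppa encodes atrial natriuretic peptide, which atrial muscle cells store in granules and release when stretched, and Nppb encodes brain natriuretic peptide, which ventricular muscle makes under load. Both peptides bind a guanylyl cyclase receptor and promote salt excretion and vessel relaxation. Ankrd1 encodes a muscle ankyrin repeat protein that binds the elastic part of titin in the sarcomere and also enters the nucleus. Acta1 encodes skeletal muscle alpha-actin, which the fetal heart makes, while Actc1, the cardiac alpha-actin, is the main actin of the adult heart.

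All of these are mRNAs, and in libraries of short RNA a count is a fragment of the transcript. Total counts ran from 973835 to 2570739 per library, and mitochondrially encoded RNA took 64.6% to 88.1% of them. Counts of nuclear protein-coding genes ran from 51111 to 160267 in controls and from 29203 to 188642 in knockouts, and every level below is a count per 100000 of these. The balance of small RNA (microRNA plus snoRNA) to protein-coding counts, on a log2 scale, ran from -1.35 to 2.88 in controls and from -2.44 to 3.11 in knockouts. The 20 most abundant protein-coding genes took 25.7% to 31.8% of the protein-coding counts in controls and 15.3% to 18.9% in knockouts. With this scaling the median log2 fold change of the 1602 features tested was 0.27, and without those 20 genes in the scaling it was 0.04. Tefm had 3 counts over the controls and 3 over the knockouts, so this depth could not show its loss, and the labels were not checked by it. Intervals on counts cover counting error only, since the sources used here describe no molecular identifiers.

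Nppb and Nppa lie next to each other on chromosome 4 (GRCm38, GENCODE M21 annotation). Nppb (ENSMUSG00000029019.8) spans 147985788 to 147987205 and Nppa (ENSMUSG00000041616.9) spans 148000722 to 148002079, both on the plus strand with 3 exons. The gap between them is 13516 bases and 0 annotated genes lie wholly within it. Acta1 (ENSMUSG00000031972.5) lies on chromosome 8 from 123891769 to 123894751, minus strand, with 7 exons. Ankrd1 lies on chromosome 19 from 36111961 to 36120099, minus strand, with 9 exons, and the coordinates belong to a later version of its identifier than the deposited one. An antisense gene, Gm13054, overlaps Nppa, and Gm20388 overlaps Acta1 on the other strand. Both had 0 counts in all 7 libraries.

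The 250 bases before each RefSeq start (GRCm38.p6) were searched on both strands for 5 motifs, because the members were high together in knockouts. The motifs were the TATA box (TATAAA, in 12.4% of 32841 promoter windows of that length), the M-CAT element bound by TEAD factors (CATTCC, 12.6%), GATAA for GATA factors (22.6%), the Nkx2-5 element (TNAAGTG, 10.1%) and the CArG box bound by SRF (1.47%). Matches are in capitals, on whichever strand they lie, and none overlapped another. The Nppa window, chr4:148000472-148000721 on the plus strand, held the Nkx2-5 element at -241, GATAA at -121 and, reversed, at -75, and the TATA box at -9.
Nppa: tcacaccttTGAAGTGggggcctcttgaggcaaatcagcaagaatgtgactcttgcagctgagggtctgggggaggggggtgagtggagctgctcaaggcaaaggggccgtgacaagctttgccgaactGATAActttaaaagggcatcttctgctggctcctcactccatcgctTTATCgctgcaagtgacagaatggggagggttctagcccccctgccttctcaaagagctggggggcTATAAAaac
The Acta1 window, chr8:123894776-123895025 on the minus strand, held the CArG box at -73, M-CAT at -46 and the TATA box at -7.
Acta1: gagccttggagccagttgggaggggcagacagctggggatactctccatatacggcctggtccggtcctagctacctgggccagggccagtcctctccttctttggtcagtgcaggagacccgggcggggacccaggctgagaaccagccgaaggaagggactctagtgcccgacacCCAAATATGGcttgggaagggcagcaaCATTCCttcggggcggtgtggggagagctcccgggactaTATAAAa
For Nppb and Ankrd1 the windows overlap exons that GENCODE annotates by 112 and 250 bases, and stretches of 30 bases around the GATA and M-CAT matches are shown. The Nppb stretch, chr4:147985794-147985823 on the plus strand, held a reversed M-CAT at -105 and GATAA at -94 and -83, and a TATA box lay at -31.
Nppb: aGGAATGcagctGATAAatcagaGATAAcc
The Ankrd1 stretches, on the minus strand at chr19:36120037-36120066, chr19:36119950-36119979 and chr19:36119874-36119903, held a reversed M-CAT at -210, another at -123 and a reversed GATAA at -47.
Ankrd1 far: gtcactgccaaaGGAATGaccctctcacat
Ankrd1 middle: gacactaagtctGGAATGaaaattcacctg
Ankrd1 near: caggctggaagaTTATCtcacccagcccta
M-CAT was found in the windows of Nppb, Ankrd1 and Acta1, and GATAA in those of Nppa, Nppb and Ankrd1. The CArG box was searched as an exact pattern with no mismatch allowed, and was found in that of Acta1 alone among the members. Looser forms of it were not searched. These matches describe the letters of the windows, and binding was not measured.

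In knockouts the fragments of all 4 genes were high. Nppb, Ankrd1 and Acta1 passed the test and rose 7.51-fold, 9.26-fold and 4.80-fold, and for Nppa, at 3.94-fold, the adjusted p was 0.0883 (edgeR quasi-likelihood test, Benjamini-Hochberg over 1602 features). That is 3 of 4 called higher, where 8.3% of all features tested were called higher, 1.56% lower and 9.86% in either direction. In each of the 4 genes every knockout library lay above every control library, which held for 19.9% of all features tested. A high level in knockouts could be enough for a gene to be tested at all. Nppb, for example, stood at 9.36 to 11.7 per 100000 in controls and at 71.0 to 89.7 in knockouts. The members' shares are therefore set beside those of all features as a description only. The count of called members stayed at 3 of 4 without control 1, knockout 1 or knockout 4. It was lower, at 1 of 4, without control 2, control 3 or knockout 3, and 2 of 4 without knockout 2. DESeq2 called 4 of 4. In bulk samples of this kind, more cells that make a transcript and more transcript per cell cannot be told apart, and neither can a change in how much of the mRNA is carried in the mitochondrial fraction or cut into fragments.

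**Figure D1:**
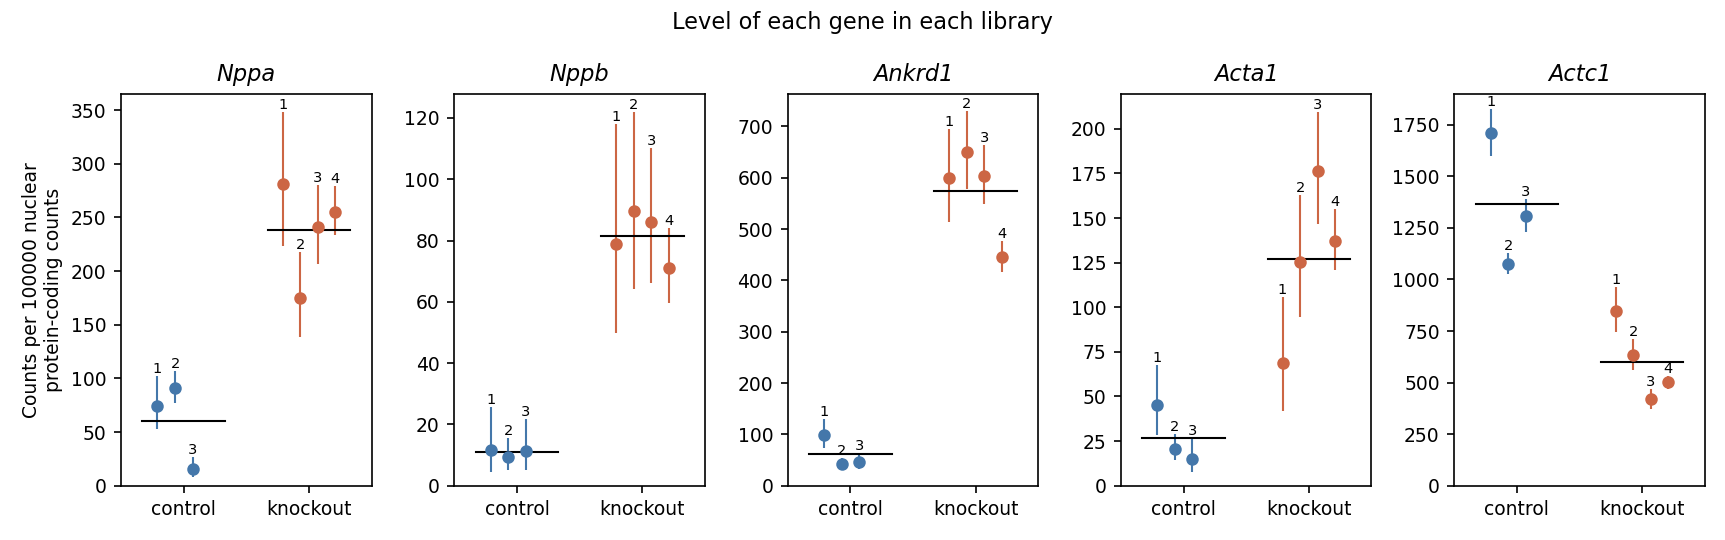
Level of Nppa, Nppb, Ankrd1, Acta1 and Actc1 (counts per 100000 nuclear protein-coding counts, vertical axis from 0) in each control and knockout library, numbered by replicate. Bars are exact Poisson 95% intervals of the count and horizontal lines are group means. The 4 members sit higher in every knockout than in any control, and Actc1 sits lower.

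Of the natriuretic peptides, Nppb had the tightest groups. Its level was 11.7, 9.36 and 11.4 per 100000 in controls 1 to 3, from 6, 15 and 9 counts. Knockouts 1 to 4 had 78.8, 89.7, 86.1 and 71.0 per 100000, from 23, 40, 62 and 134 counts. The groups were far apart and each was narrow, with a coefficient of variation of 11.9% in controls and 10.1% in knockouts. Counting error in controls was wider than their spread, with a Poisson 95% interval of 4.31 to 25.6 in control 1. The highest Poisson bound of a control (25.6 in control 1) was below the lowest bound of a knockout (49.9 in knockout 1). Means were 10.8 ± 1.28 (SD, n = 3) and 81.4 ± 8.25 (SD, n = 4), and the log2 fold change was 2.91 ± 0.27 (SE, edgeR adjusted p = 0.00366). The call was kept when any library was left out (edgeR adjusted p from 0.00387 to 0.0407). It was lost when libraries were scaled to total counts (log2 fold change 3.65, adjusted p = 0.0768) or microRNA counts (3.70, adjusted p = 0.970).

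Nppa varied more. Its level was 74.3, 91.1 and 15.2 per 100000 in controls 1 to 3, from 38, 146 and 12 counts. Knockouts 1 to 4 had 281, 175, 242 and 256 per 100000, from 82, 78, 174 and 482 counts. Control 3 was the low library of its group, and the lowest knockout was still above the highest control. The coefficient of variation was 66.2% in controls and 19.0% in knockouts. Means were 60.2 ± 39.9 (SD, n = 3) and 238 ± 45.2 (SD, n = 4), and the log2 fold change was 1.98 ± 0.64 (SE, edgeR adjusted p = 0.0883). Without control 3 it was 1.52 (edgeR adjusted p = 0.174). The call depended on the test and on what else was in the fit. Nppa passed with protein-coding genes alone in the edgeR fit (log2 fold change 1.97, adjusted p = 0.00710), with the small RNA ratio as a covariate (1.98, adjusted p = 0.00674) and with DESeq2 (1.98, adjusted p = 0.00455, and with DESeq2's own size factors 1.65, adjusted p = 0.0351). In the authors' deposited table its log2 fold change was 1.45, with an adjusted p of 0.101.

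Nppa is far more abundant in atria than in ventricles, so the share of atrial muscle in each preparation bears on it. The summed level of 10 atrial markers was 88.0, 137 and 29.1 per 100000 in controls 1 to 3 and 54.8, 47.1, 30.5 and 76.9 in knockouts 1 to 4. Control 3 was low in these markers as it was in Nppa: Myl4 and Myl7, the atrial myosin light chains, had 5 and 2 counts there, and Bmp10, an atrial growth factor, had 1 count. The sum was not high in knockouts, but the markers differed. Myl7, the marker most used for atrial muscle, had 9, 26 and 2 counts in controls and 0, 0, 0 and 5 in knockouts. Bmp10 stood at 11.7, 48.0 and 1.27 per 100000 in controls and 24.0, 31.4, 12.5 and 47.7 in knockouts. It made up most of the sum in knockouts 2 and 4. Of the 10 markers 2 passed the low-count filter and 0 were called by edgeR or DESeq2 (0 at an unadjusted p under 0.05 by edgeR), Myl4 at -1.23 ± 0.60 in log2 (SE, edgeR adjusted p = 0.231) and Bmp10 at 0.44 ± 0.85 (SE, edgeR adjusted p = 0.821). The ratio of Nppa to the atrial sum was 0.844, 0.664 and 0.522 in controls 1 to 3 and 5.13, 3.71, 7.91 and 3.32 in knockouts 1 to 4. The groups did not overlap in this ratio, whose denominator rests on low counts. The part of atrial muscle in the level of Nppa was not tested. Nppb in controls did not follow the atrial sum, being 11.4 where the sum was 29.1 and 9.36 where it was 137.

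**Figure D2:**
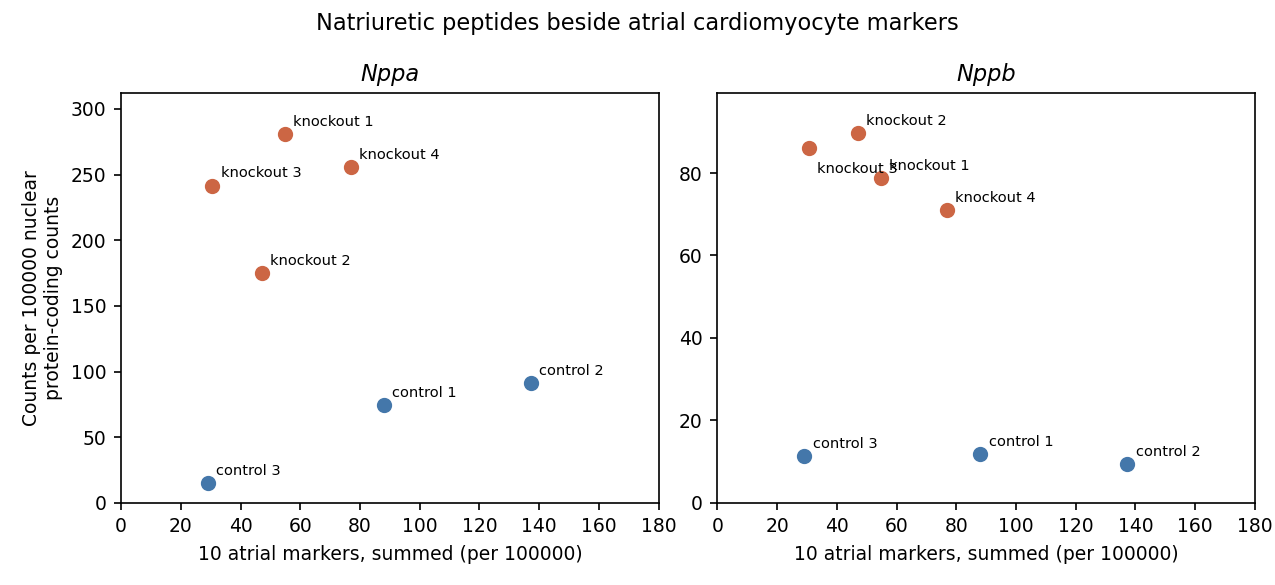
Level of Nppa and of Nppb (vertical axes) against the summed level of 10 atrial cardiomyocyte markers (horizontal axis), all in counts per 100000 nuclear protein-coding counts, with 1 point per library. Among controls Nppa is lowest where the markers are lowest, at 29.1, and the knockouts lie above the controls over a marker range of 30.5 to 76.9.

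Of the genes that process and receive the peptides, Corin and Pcsk6 had the most counts, and the signalling receptors had too few to test. The list of convertases, receptors, cGMP kinases, phosphodiesterases and degrading enzymes matched 15 features, of which 11 had a count and 4 passed the low-count filter. Of these 4, edgeR called 0 (1 at an unadjusted p under 0.05) and DESeq2 1, lower, and their median log2 fold change was -0.39 against 0.27 for all features tested. Pcsk6, a convertase that activates corin, had the smallest adjusted p. It stood at 42.5 ± 23.4 per 100000 in controls (SD, n = 3) and 9.31 ± 7.96 in knockouts (SD, n = 4), and its log2 fold change of -1.94 ± 0.63 had an edgeR adjusted p of 0.0896. It was past the threshold in 5 of the 17 alternatives that tested it. Corin, the protease that cuts the precursor of atrial natriuretic peptide, had 59.0 ± 9.73 and 43.7 ± 11.4 per 100000, and its change of -0.43 ± 0.29 in log2 (edgeR adjusted p = 0.388) turned sign under scaling to total or microRNA counts. Furin, a general convertase, stood at -0.34 ± 0.30 and turned under the same scalings. Npr3, the clearance receptor, stood at 0.93 ± 0.72 in log2 (edgeR adjusted p = 0.458). The signalling receptor Npr1 had 17 counts over the controls and 9 over the knockouts and was not tested. Nppc, which encodes the third natriuretic peptide, had 0 counts in all libraries.

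Ankrd1 had the largest fold change of the members. Its level was 97.8, 41.8 and 46.8 per 100000 in controls 1 to 3, from 50, 67 and 37 counts. Knockouts 1 to 4 had 599, 650, 604 and 446 per 100000, from 175, 290, 435 and 841 counts. Control 1 was the high control and knockout 4 the low knockout, and the groups did not overlap. Means were 62.1 ± 31.0 (SD, n = 3) and 575 ± 88.9 (SD, n = 4), and the log2 fold change was 3.21 ± 0.57 (SE, edgeR adjusted p = 0.0162), the 19th highest of 1602. The call was lost without control 2 (edgeR adjusted p = 0.0853), control 3 (0.102) or knockout 3 (0.0515), with log2 fold changes of 2.99, 3.04 and 3.19. It was also lost when libraries were scaled to total counts (3.99, adjusted p = 0.0768) or microRNA counts (4.17, adjusted p = 0.970).

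Ankrd1 protein sits among other proteins of the Z-disc and titin, and a list of 28 such genes was described beside it. Of these, 27 had a count, 20 were tested, 6 were called higher and 1 lower by edgeR, where 8.3% of all features tested were called higher and 1.56% lower. The median log2 fold change was 0.66 against 0.27 for all features. Fhl1, a LIM protein of the titin spring that takes part in stretch signalling, rose from 5.49 ± 1.83 to 63.4 ± 18.5 per 100000, or 3.41 ± 0.39 in log2 (edgeR adjusted p = 0.00471). Synpo2l, an actin-bundling protein of the Z-disc, rose by 2.46 ± 0.27 in log2 (edgeR adjusted p = 0.00471). Flnc, the muscle filamin, rose by 2.02 ± 0.44, and the Xin repeat proteins Xirp1 and Xirp2 rose by 1.25 ± 0.28 and 2.06 ± 0.50. Rcan1, an inhibitor of calcineurin, rose by 1.54 ± 0.36. Fhl2, the other LIM protein of the titin spring in heart, fell from 156 ± 39.3 to 47.0 ± 18.7 per 100000, or -1.74 ± 0.42 in log2 (edgeR adjusted p = 0.0407). Every knockout lay above every control in 11 of the 20 tested genes and below in 1, against 19.9% and 7.37% of all features. Genes high in knockouts, such as Fhl1, could pass the low-count filter through the knockouts alone. The counts of calls, the median and these shares are therefore a description. Ankrd2, the skeletal muscle relative of Ankrd1, had 0 counts in all libraries. Under TMM scaling over all features Fhl1 and Synpo2l stayed past the threshold, 2 of the 21 tested genes of the list were called higher and the median was 0.25. Without control 1 the list had 3 calls higher, and it had 2 without control 2, control 3, knockout 2 or knockout 3.

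Acta1 had the largest adjusted p of the called members. Its level was 45.0, 20.6 and 15.2 per 100000 in controls 1 to 3, from 23, 33 and 12 counts. Knockouts 1 to 4 had 68.5, 126, 176 and 137 per 100000, from 20, 56, 127 and 259 counts. Knockout 1 was low and close to control 1, and the Poisson intervals of these libraries overlapped (41.8 to 106 and 28.5 to 67.5). Means were 26.9 ± 15.9 (SD, n = 3) and 127 ± 44.6 (SD, n = 4), and the log2 fold change was 2.26 ± 0.52 (SE, edgeR adjusted p = 0.0350). The call was lost without control 2 (log2 fold change 2.10, edgeR adjusted p = 0.147), control 3 (1.97, 0.140), knockout 2 (2.27, 0.0649) or knockout 3 (2.07, 0.0859). It was lost too under TMM scaling over all features (2.06, adjusted p = 0.0676) and over protein-coding genes (2.08, adjusted p = 0.0549). The authors' deposited table gives a log2 fold change of 1.84 with an adjusted p of 0.00427.

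Acta1 fragments could be mistaken for those of another actin, so the sequences were compared. Of the words of 30 bases in the Acta1 transcript, 4.73% occur in another gene and 4.16% in Actb, and 0 are shared with Actc1 or Acta2. With words of 20 bases, near the shortest fragments that can be placed, 17.4% occur in another gene and 2.45% in Actc1. No word of 30 bases of Nppa, Nppb or Ankrd1 occurs in another gene. With words of 20 bases, 0.83% of those of Nppa, 3.81% of Nppb and 0% of Ankrd1 do. No other actin was called higher. Actc1 stood at 1712, 1074 and 1308 per 100000 in controls 1 to 3 and at 849, 634, 419 and 500 in knockouts 1 to 4. Every knockout was below every control, but the log2 fold change of -1.18 ± 0.54 did not pass (SE, edgeR adjusted p = 0.200). Acta2, the smooth muscle actin, fell from 19.5 ± 2.85 to 7.30 ± 2.60 per 100000, or -1.29 ± 0.30 in log2 (edgeR adjusted p = 0.0380, past the threshold in 7 of 18 alternatives). Actb, a cytoplasmic actin, had a log2 fold change of 0.14 ± 0.37, and its sign turned under both TMM scalings and without the 20 most abundant genes. Actg1 and Actg2 had 0 counts in all libraries. A count of 0 does not show absence, since the sources used here do not give the handling of multiply mapped reads.

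Within a library the log2 ratio of Acta1 to Actc1 was -5.22, -5.68 and -6.37 in controls 1 to 3 and -3.60, -2.33, -1.25 and -1.86 in knockouts 1 to 4. Scaling between libraries cancels in this ratio. It shifted by 3.50, an 11.3-fold change, and the groups did not overlap. The two-sided exact permutation p was 0.0286, the smallest that 3 against 4 libraries allow, and 0.2 after adjustment over 7 ratios. Even with this shift the knockouts held less Acta1 than Actc1 per length, at 87.8 ± 30.8 against 408 ± 128 counts per kilobase (SD, n = 4).

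Acta1 and Ankrd1 are also made in skeletal muscle, and its markers were low. The summed level of 12 skeletal muscle markers was 142 to 211 per 100000 in controls and 82.9 to 89.0 in knockouts, most of it from Ckm, the muscle creatine kinase that heart also makes. Among the defining markers, Actn3 and Pvalb had 0 counts in all libraries, and Myh4, Mylpf, Tnnt3, Tnni2 and Atp2a1 had 0 in all knockouts. Myh1 had 1 count over the controls and 2 over the knockouts, Myh2 0 and 1, Myl1 3 and 1, and Casq1 6 and 1. Control 1 was the exception with 9 counts of Myh4, a fast skeletal myosin, and 7 of Atp2a1, and it was also the control with the highest Acta1 and Ankrd1. Without control 1 the log2 fold change was 2.82 for Acta1 and 3.69 for Ankrd1, larger than with it. The part of skeletal muscle in the levels of Acta1 and Ankrd1 was not tested.

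Heart muscle markers were present in every library. All 10 cardiomyocyte markers had counts in both groups, with a summed level of 8554 to 13326 per 100000 in controls and 5517 to 7658 in knockouts, and edgeR called 0 of the 10 (3 at an unadjusted p under 0.05). DESeq2 with the same scaling called 1 higher and 2 lower. Under protein-coding scaling the members were thus high in the libraries where the cardiomyocyte sum was low. The median log2 fold change of the 10 cardiomyocyte markers was -0.58 under that scaling, 0.35 under total counts and 0.55 under microRNA counts. The ventricular sum ran from 603 to 947 per 100000 in controls and from 439 to 657 in knockouts. Of 4 ventricular markers tested 3 stood below 0 in log2 and did not pass, Myl2 at -0.41 ± 0.44, Myl3 at -0.65 ± 0.43 and Mylk3 at -0.45 ± 0.27, each with the opposite sign under scaling to total or microRNA counts. The other, Lrrc10, a heart-specific leucine-rich repeat protein, rose by 1.36 ± 0.32 (edgeR adjusted p = 0.0384), a call lost under all 4 other scalings that tested it. Of 7 fibroblast markers tested 1 was called, Postn, a matrix protein of activated fibroblasts, which rose by 2.85 ± 0.50 (edgeR adjusted p = 0.0161). Of the other 6, the collagen genes Col1a1, Col1a2 and Col3a1 stood at 0.81 ± 0.58, 0.70 ± 0.50 and 0.64 ± 0.55, and Dcn, Lum and Pdgfra at -0.61 ± 0.42, -0.62 ± 0.34 and -0.09 ± 0.53, the last 3 with the opposite sign under the same scalings. The fibroblast sum ran from 487 to 801 per 100000 in controls and from 476 to 1094 in knockouts. Of 4 macrophage markers tested 1 was called, Cd74, which fell from 27.9 ± 4.48 to 6.77 ± 3.70 per 100000 (edgeR adjusted p = 0.0191). Of 5 endothelial markers tested edgeR called 0 (2 at an unadjusted p under 0.05) and DESeq2 2, both lower, with a summed level of 200 to 300 per 100000 in controls and 98.6 to 217 in knockouts. The smooth muscle sum was 48.9 to 50.6 in controls and 22.4 to 41.3 in knockouts. The part of these cell types in the members' changes was not tested.

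Factors known to drive these genes were mostly too low to test. A list of 32 transcription factors and cofactors of cardiac hypertrophy matched 30 features, of which 8 were tested and 0 called by edgeR (1 at an unadjusted p under 0.05) or by DESeq2, where 9.86% of all features tested were called. Their median log2 fold change was 0.41 against 0.27 for all features. Tead1, which binds the M-CAT element, had the smallest adjusted p: its level was 37.1 ± 4.31 per 100000 in controls and 67.0 ± 14.8 in knockouts, and its log2 fold change of 0.84 ± 0.29 had an edgeR adjusted p of 0.103. It passed in 1 of 19 alternatives, the fit with the small RNA ratio as a covariate. Mef2d stood at 0.59 ± 0.30 and Wwtr1, a TEAD cofactor, at 0.54 ± 0.36. Jun stood at -0.53 ± 0.29, with the opposite sign under scaling to total or microRNA counts. Most of the list, Srf, Nkx2-5 and Myocd among them, had too few counts to be tested.

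Other targets of SRF, YAP and mechanical load gave 2 calls higher and 0 lower among 5 tested of 15 found, where 8.3% of all features tested were called higher. The median log2 fold change was 0.95 against 0.27 for all features. Ctgf, a matricellular protein, rose from 13.1 ± 6.24 to 89.3 ± 38.8, or 2.71 ± 0.47 in log2 (edgeR adjusted p = 0.0161). Thbs1 and Flna stood at 0.95 ± 0.55 and 0.46 ± 0.30 and did not pass. Called genes could pass the low-count filter through the knockouts alone, so a count of calls over tested genes is a description. With other libraries the list had 3 calls higher (without control 1) or 1 (without control 2 or control 3), and 1 under TMM scaling over all features.

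The list of other genes of the fetal and stressed heart had 4 of 6 tested genes called higher and 1 lower, of 17 found, where 8.3% of all features tested were called higher and 1.56% lower. The median log2 fold change was 1.88 against 0.27 for all features. Here too called genes could pass the low-count filter through the knockouts alone, so the count of calls and the median are a description. Myh7, the fetal ventricular myosin heavy chain of the mouse, rose from 15.2 ± 9.64 to 446 ± 262 per 100000, or 4.88 ± 0.79 in log2 (edgeR adjusted p = 0.0123). Gdf15, a secreted stress signal, had 1 count over the controls and 116 over the knockouts, a ratio of 100.7 relative to protein-coding counts (exact 95% interval 17.7 to 4012) with an edgeR adjusted p of 0.00979. That interval treats the summed counts alone and leaves out spread between libraries. Knockout libraries ran from 6.85 to 56.9 per 100000 in Gdf15. Enah, an actin regulator, rose by 1.99 ± 0.31 and Hk1, a hexokinase, by 1.77 ± 0.32. The lower gene was Acta2. Without control 2 edgeR called 0 genes of the list (5 at an unadjusted p under 0.05), without control 3 it called 1 higher and without knockout 3 it called 2 higher. This list shares Acta2 with the actins and with the smooth muscle markers, and Myl4 and Myl7 with the atrial markers. Myl4, which fetal ventricles also make, was not called.

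**Figure D3:**
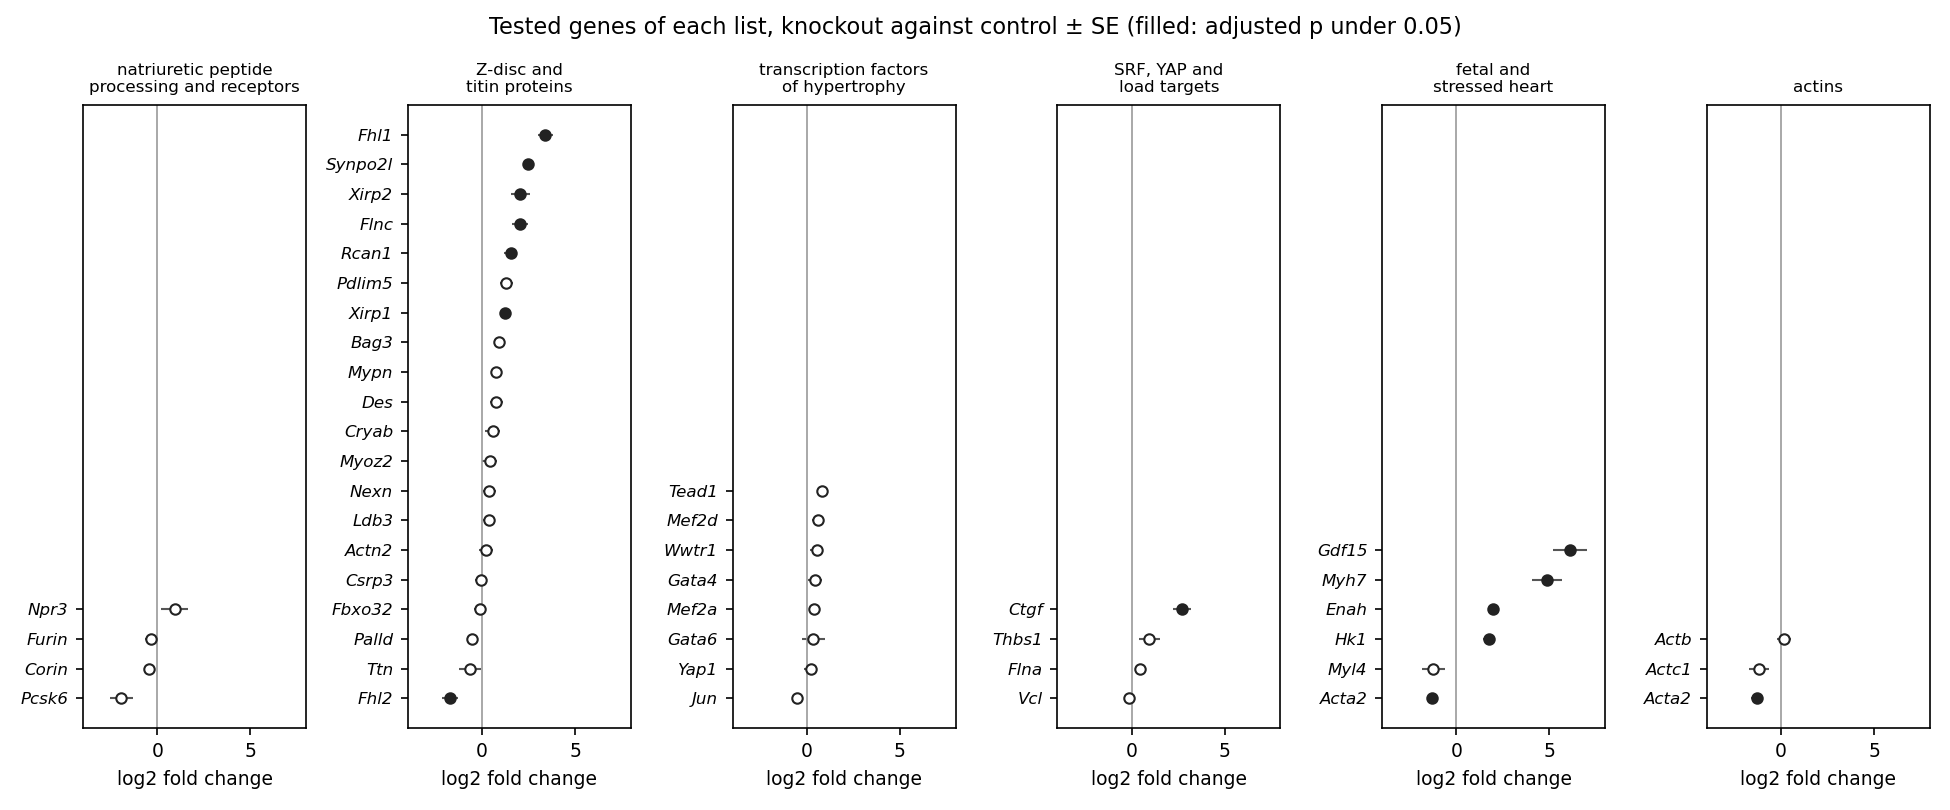
Log2 fold change, knockout against control, ± SE (horizontal axis) of tested genes in 6 lists, with filled points at an edgeR adjusted p under 0.05. Called genes are the 6 rises and 1 fall among Z-disc and titin proteins, Ctgf among SRF, YAP and load targets, the 4 rises among fetal and stressed heart genes, and Acta2.

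Per kilobase of transcript the order of the members differed between the groups. In controls Nppa came first with 69.6 ± 46.1 counts per 100000 and kilobase, then Ankrd1 with 34.2 ± 17.1, Acta1 with 18.6 ± 11.0 and Nppb with 13.9 ± 1.64 (SD, n = 3). In knockouts Ankrd1 came first with 316 ± 48.9, then Nppa with 275 ± 52.3, Nppb with 104 ± 10.6 and Acta1 with 87.8 ± 30.8 (SD, n = 4). Among neighbours in these orders the library ranges overlapped in all but the step from Nppa to Nppb in knockouts, where the lowest Nppa was 202 and the highest Nppb was 115.

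Whether the members changed to unlike extents was tested with their 6 ratios to each other within a library, adjusted together with the Acta1 to Actc1 ratio. No ratio passed, and with 3 against 4 libraries the smallest exact permutation p of 0.0286 adjusts to 0.2 over 7 ratios, so a single ratio could not pass at any size of difference. The ratios are given as a description. Of the 6 ratios between members, the log2 ratio of Acta1 to Ankrd1 came closest, at -1.23 ± 0.31 in controls (SD, n = 3) and -2.23 ± 0.65 in knockouts (SD, n = 4), without overlap (exact permutation p = 0.0857, adjusted p = 0.3). Ankrd1 to Nppb was steadiest in knockouts, at 2.80 ± 0.11 (SD, n = 4) against 2.35 ± 0.53 in controls (SD, n = 3, exact permutation p = 0.229). For Nppb to Nppa the control value of -2.07 ± 1.49 and the knockout value of -1.52 ± 0.41 overlapped (exact permutation p = 0.514), and control 3 stood apart at -0.40. Acta1 to Nppa was -0.95 ± 1.08 and -0.96 ± 0.73 (exact permutation p = 1).

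Across the 7 libraries Nppb and Ankrd1 followed each other most closely of the members (Pearson r = 0.984 of log2 levels), and Nppa and Nppb least (r = 0.809). The libraries fall in 2 groups that do not overlap in any of the 4 genes, so these values describe the gap between groups as much as the spread within them. The features most like Nppb over the 7 libraries were Msn, a membrane to actin linker (r = 0.995), Sars, a seryl-tRNA synthetase (0.995), and Acot2, a mitochondrial thioesterase (0.991). Those most like Ankrd1 were Asns, asparagine synthetase (r = 0.997), Gars, a glycyl-tRNA synthetase (0.994), and Ehd4, an endocytic ATPase (0.993). Asns ran from 0 to 3.91 per 100000 in controls and from 29.7 to 42.6 in knockouts. Those most like Acta1 were Naca (r = 0.982), Slc4a4 (0.973) and Ugp2 (0.972), and those most like Nppa were Taok1 (r = 0.973), Synpo (0.958) and Sptbn1 (0.956). The neighbours of Nppa did not pass the edgeR test either, with log2 fold changes of 0.41 to 1.05 and adjusted p from 0.103 to 0.539.

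**Figure D4:**
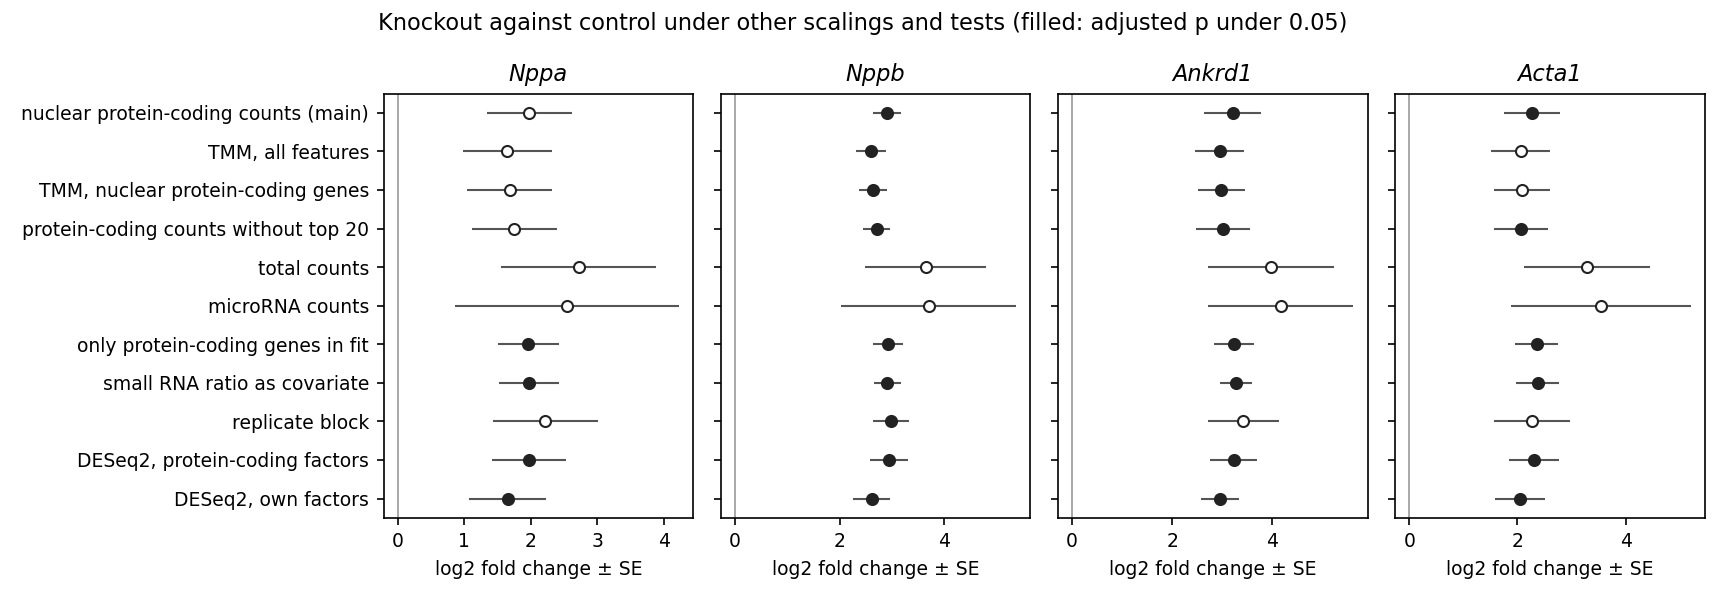
Log2 fold change ± SE of each member (horizontal axes) under the reported edgeR fit and 10 other scalings or tests, with filled points at an adjusted p under 0.05. Every value is above 0, and the wide bars are those of scaling to total or microRNA counts.

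The direction of all 4 members was the same under each of 19 other settings, scalings, tests and left-out libraries included. Most of these kept the scaling under which every knockout lay above every control, and could hardly turn the direction. The adjusted p was under 0.05 in 17 of them for Nppb, 13 for Ankrd1, 10 for Acta1 and 4 for Nppa. The log2 fold change ran from 2.61 to 3.70 for Nppb, from 2.95 to 4.17 for Ankrd1, from 1.97 to 3.54 for Acta1 and from 1.52 to 2.72 for Nppa.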

How the data were processed

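RNA of crude mouse heart mitochondria had been isolated with a column kit, and small RNA libraries were read from a single end on a MiSeq instrument, per the labels' protocols. Raw counts per gene were made by the authors, and the submitters' processing notes name featureCounts, the aligner Bowtie2, the trimmer cutadapt 1.10, bedtools, SAMtools 1.3.1, DESeq2 1.14.1 on R 3.3.2 and the mm10 build. The strand setting and the handling of multiply mapped reads are in none of these sources. The authors' normalised signal is the raw count over 1 factor per library (0.496 to 2.65, as read from the values) and served as a check. The authors' deposited comparison table holds log2 fold changes with standard errors, a Wald score, and p-values with adjusted p-values, per the file headers, and the values it gave are named as such.

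The raw counts of all features were fitted in R 4.3.3 by the quasi-likelihood method of edgeR 4.0.16 (two-sided, 2 groups, no covariate), with library sizes set to nuclear protein-coding counts and the default low-count filter (minimum count 10). P-values were adjusted by Benjamini-Hochberg over the 1602 features left and called under 0.05. A gene's SE is its log2 fold change over the root of the F statistic. Ratios within a library were log2 of count + 0.5 over count + 0.5, tested by exact permutation. Likeness is Pearson's r of edgeR log2 CPM (prior count 2) over 7 libraries. Replicate pairs of a group differed beyond sampling noise (chi-square per degree of freedom 1.87 to 5.78). Alternatives were other scalings, filters, DESeq2 1.42.0, a covariate, a replicate block and each library left out. The edgeR and DESeq2 steps were tested on simulated data. Promoter and transcript sequences came from RefSeq and GENCODE M21, and 4 of 4 members matched. Tables and tests outside R used Python 3.11.15, numpy 2.4.6, pandas 2.3.3 and scipy 1.17.1.

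The members and gene lists were chosen with earlier results of these data known, and no list is independent evidence. Named genes were the members, Tefm, Actc1, up to 4 tested genes of lowest adjusted p per list, and the 3 features most like each member. Fhl2, Xirp2, Rcan1, Npr1, Nppc, Myl7, Ankrd2, Srf, Nkx2-5, Myocd and the skeletal markers and actins at 0 were named after their values were seen. Of the genes called, 1 is not reported here by name and is left out of the plot of gene lists, though it stays in the counts.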

Additional observations from a re-analysis of the deposited data

Results flagged for a closer look

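The summed level of 5 erythroid markers was 41.1 per 100000 nuclear protein-coding counts in knockout 1 and lay far from 11.2, 11.1 and 15.4 in knockouts 2 to 4. Controls ran from 18.1 to 35.4. None of these markers passed the low-count filter. The search covered 21 groups of values in the knockouts, the 4 members' levels and ratios included, and chance flags about 1 in 20.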

How the results depend on the processing

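The 4 members stayed higher in knockouts in all 19 alternatives, most of which kept the scaling, while their log2 fold changes and calls moved. Of all features, 158 were called (133 higher, 25 lower). TMM scaling over all features gave 72 (48 and 24), TMM over protein-coding genes 94 (63 and 31), total counts 11 (10 and 1), and microRNA counts 0 (22 at an unadjusted p under 0.05 by edgeR, DESeq2 not run there). Protein-coding genes alone in the fit gave 285 (222 and 63), no low-count filter 265 (211 and 54), a minimum count of 30 gave 77 (61 and 16), DESeq2 with the same scaling 244 (186 and 58), DESeq2's own factors 234 (122 and 112), scaling without the 20 most abundant genes 140 (93 and 47), and the small RNA covariate 444 (323 and 121). Leaving out 1 library gave 13 to 160, with 13 without control 2, 39 without control 3, 49 without knockout 3 and 91 without knockout 2. The cause of these moves was not tested.

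Nppa passed the threshold with log2 fold changes of 1.97 (protein-coding genes alone), 1.98 (DESeq2), 1.65 (DESeq2's own factors) and 1.98 (covariate). Nppb did not pass under total counts (3.65) or microRNA counts (3.70). Neither did Ankrd1 (3.99 and 4.17) or Acta1 (3.29 and 3.54), and Acta1 also missed under TMM (2.06 over all features and 2.08 over protein-coding genes). Without 1 library in turn, Ankrd1 ran from 2.99 to 3.69 and Acta1 from 1.97 to 2.82. The Nppb to Nppa ratio difference ran from -0.042 (without control 2) to 1.38, and that of Acta1 to Nppa from -0.60 to 0.46, turning sign without control 1 (0.11), control 3 (0.46) or knockout 1 (0.34) and with group medians (0.028).

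Replicate numbers are shared between the groups. Same-numbered libraries deviated together with correlations of 0.53, -0.80 and 0.31, and control 1 correlated best with knockout 2. Both of these also had the highest balance of small RNA to protein-coding counts in their groups (log2 2.88 and 3.11). The correlations therefore could not decide whether the numbers pair the libraries, and the reported fit used no pairing. In a fit with the number as a replicate block, knockout 4 has no control of its number and adds nothing to the group difference. That fit called 15 features, all higher. Nppb passed (2.98, edgeR adjusted p = 0.0461), and Ankrd1 (3.42, 0.0861), Acta1 (2.28, 0.142) and Nppa (2.22, 0.176) did not. Depth limits Nppb in controls (6 to 15 counts) and most receptors and transcription factors, which could not be tested.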
